A study of Mus musculus with 4 samples.

Results

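Prostaglandins and leukotrienes are lipid mediators made from arachidonic acid, and the enzymes that make and destroy them were followed here by cell type in mouse lung tumors. The set holds 8 genes of the 31055 features in the expression matrix, chosen by symbol: *Ptgs1*, *Ptgs2*, *Ptges*, *Hpgds*, *Hpgd*, *Alox5*, *Alox5ap* and *Ltc4s*. Microdissected tumors came from 4 female mice that had received Lenti-Cre by the airway, were left for 16 weeks and were given tamoxifen in 4 mg doses over the last 2 weeks. All carried Lkb1XTR/XTR, in which Cre switches off Lkb1. The 2 mice labelled Restored carried Rosa26LSL-tdTomato/FLPo-ERT2, so that tamoxifen could turn Lkb1 back on, and the 2 labelled Non-Restored carried Rosa26LSL-tdTomato without the recombinase. The labels state no age, and they do not name the promoter that drives the viral Cre.

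Viable cells were sorted by exclusion of a dead-cell dye and profiled by single-cell RNA-seq that counts unique molecular identifiers (UMIs) at the 3′ ends of transcripts. Cells in the matrix carry a column number and could not be assigned to a mouse, so the 20351 cells were treated as 1 pooled sample. The cohorts were therefore not compared, no test between samples was possible, and intervals cover counting error only. Of these cells, 19488 passed the filters, at a median depth of 1950 UMIs (853 genes). Marker genes placed 17289 of them (88.7%) in 25 classes, of which 23 held at least 50 cells, and 2199 cells were left without a class. Levels are in CPM, which here means how many of every 1000000 UMIs in a class belonged to the gene, with an exact 95% Poisson interval.

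Classes are called "-like" because they rest on markers, and none of the 8 genes was a marker. Of the gated cells, 792 (4.58%) lay near the limit of a marker list's gate, 234 of them in the Mmp12-high myeloid class. Nearness was taken before the Mmp12-high gate was applied and does not measure that gate. The weighted share of its own list that the median cell showed ranged from 0.328 (T-like) to 0.916 (ATII-like), and of the best other list it was 0.103 and 0.481 in those classes. The Mmp12-high class was gated on at least 3 of *Mmp12*, *Asgr2*, *Dcstamp*, *Flrt3*, *Ppp1r1a* and *Pgf*, and it was left without a cell type name. Its leading genes were *Asgr2*, *Ccl17* and *Mmp12*, of which *Asgr2* and *Mmp12* were gate genes. Its gate also asked for at least 3 C1q macrophage markers, among them at least 2 of *C1qa*, *C1qb* and *C1qc*. Its own genes had to outnumber *Ms4a7*, *Apoe* and *Pf4* by at least 2. The Mmp12-high class and a capillary class with high *Esm1* were added after clusters of the cells had been seen. *Scgb1a1*, a secretory cell gene, led the ATI or transitional epithelial-like class, ahead of the ATI gene *Ager*. No class was formed for mast cells, a well-known source of these mediators. Of the 8 mast cell markers listed, *Tpsb2*, *Tpsab1* and *Mrgprb2* had 0 UMIs in the whole matrix, *Mrgprb1* had 1 UMI and *Mcpt4* had 6 UMIs. The other 3 were seen and were highest in other classes, *Cma1* (301 UMIs in 203 cells) in NK-like cells at 360 CPM, *Kit* (1522 UMIs) in capillary cells at 301 CPM and *Cpa3* (369 UMIs), which basophils share, in basophil-like cells. Of 7 eosinophil markers *Epx* and *Ear6* had 0 UMIs, *Prg3* 3, *Ccr3* 34, *Il5ra* 47 and *Prg2* 75, while *Siglecf*, also an alveolar macrophage gene, had 1000 UMIs and was highest in alveolar macrophage-like cells. Basophil-like cells (171 cells) had *Mcpt8* at 3247 CPM, *Cpa3* at 1157 CPM and *Ms4a2* at 820 CPM. These genes are on the list that gated the class, so their levels do not test its identity.

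Cyclooxygenases convert arachidonic acid to prostaglandin H2, and terminal synthases turn that into single prostaglandins such as E2 and D2, which 15-hydroxyprostaglandin dehydrogenase then inactivates. 5-lipoxygenase, with its membrane helper FLAP, opens the leukotriene branch, in which leukotriene C4 synthase makes the cysteinyl leukotrienes. In lung these lipids act on vessel tone, airway muscle and leukocyte traffic, and cyclooxygenase-2 is widely studied in tumors. Because steps of a pathway can lie in different cells, the class that holds each step was asked of the data.

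The promoters of 3 members are shown because these genes led in 3 different kinds of cell: *Ptgs1* in epithelium, *Ptgs2* in granulocytes and *Ltc4s* in alveolar macrophages. RefSeq promoter sequences were found for 7 of the 8 genes, and the bases shown lie before the annotated start in both RefSeq and GENCODE. Capitals mark matches on either strand to TTGCNNAA (C/EBP) or AGGAAG (PU.1). The windows are on GRCm38.p6, *Ptgs1* at chr2:36230176-36230425 (+), *Ptgs2* at chr1:150099781-150100030 (+) and *Ltc4s* at chr11:50238617-50238782 (-).
Ptgs1: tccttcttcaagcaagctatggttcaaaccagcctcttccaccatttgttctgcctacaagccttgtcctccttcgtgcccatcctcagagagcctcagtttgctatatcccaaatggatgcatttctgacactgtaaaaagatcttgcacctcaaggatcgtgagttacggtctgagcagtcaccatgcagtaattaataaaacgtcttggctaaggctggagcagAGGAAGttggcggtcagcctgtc
Ptgs2: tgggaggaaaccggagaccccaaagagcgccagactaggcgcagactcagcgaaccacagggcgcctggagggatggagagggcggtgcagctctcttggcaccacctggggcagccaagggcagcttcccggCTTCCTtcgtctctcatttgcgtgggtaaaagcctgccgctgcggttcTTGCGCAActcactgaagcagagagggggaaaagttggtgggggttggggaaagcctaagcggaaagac
Ltc4s: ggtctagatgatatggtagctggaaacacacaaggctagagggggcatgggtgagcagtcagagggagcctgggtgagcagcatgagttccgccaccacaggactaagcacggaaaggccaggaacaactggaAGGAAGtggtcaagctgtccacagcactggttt
The *Ptgs2* window held 1 C/EBP match, which 9.57% of 32841 promoter windows of 250 bases held, and 1 PU.1 match, which 29.5% held. The *Ptgs1* window held 1 PU.1 match and no C/EBP match. The *Ltc4s* window of 166 bases held 1 PU.1 match, which 19.99% of windows of that length held. TGACG (the CRE half-site, either strand) and TATAAA (gene strand) were also searched and were in none of the 3 windows. A match describes letters and was not tested as a binding site.

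The 8 genes had a total of 51226 UMIs in the matrix, from 392 for *Ptges* to 26510 for *Alox5ap*. In 7 of the 8, the level in the highest class was at least 4 times that in all other gated cells, the exception being *Alox5ap* at 3.78 times. Over all 7090 genes with at least 50 CPM in a class, 43.1% met the same criterion. No reading of the members is taken from that count, since the highest class is found from the same values.

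**Figure D1:**
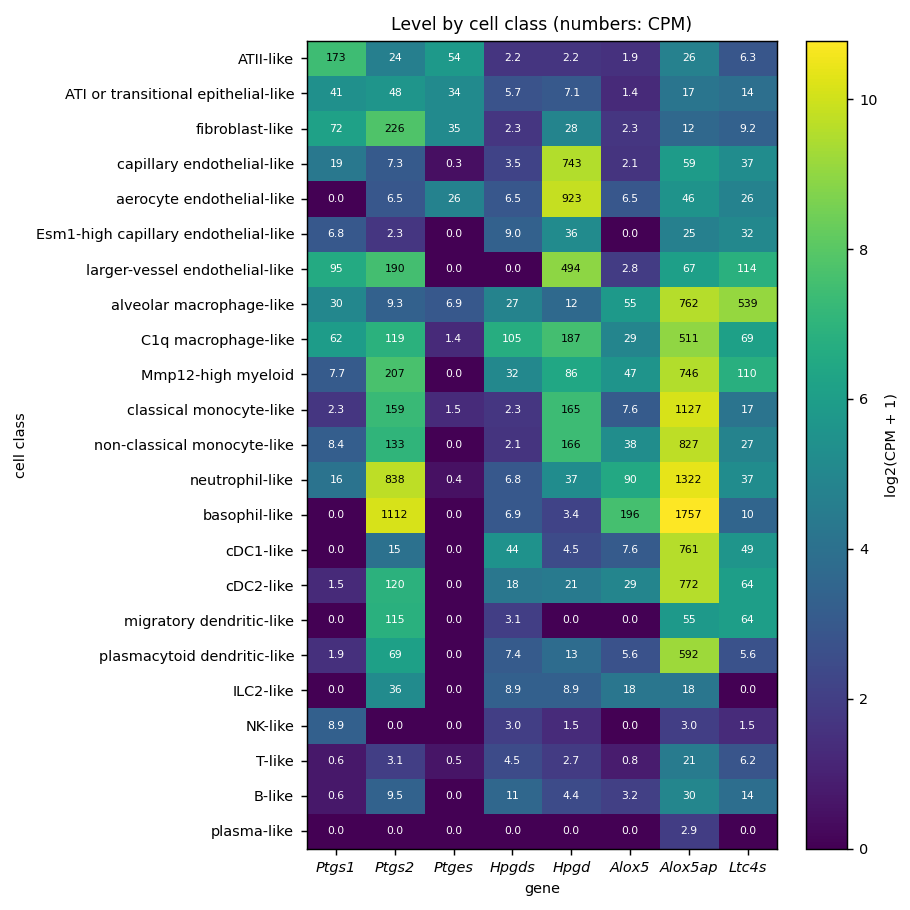
Level of the 8 genes (columns) in the 23 classes of at least 50 cells (rows), coloured by log2(CPM + 1) with the CPM printed. *Ptgs1* and *Ptges* peak in ATII-like cells, *Hpgd* in endothelial-like cells, *Ptgs2*, *Alox5* and *Alox5ap* in basophil-like and neutrophil-like cells, and *Ltc4s* in alveolar macrophage-like cells.

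*Ptgs1* (ENSMUSG00000047250, chr2:36230426-36252272 on GRCm38, + strand) encodes the constitutive cyclooxygenase-1. Its level was highest in ATII-like cells, at 173 CPM (159 to 188, 547 UMIs in 747 cells). These cells showed the surfactant genes of alveolar type II cells, and the Cre reporter TdTomato at 5459 CPM. It was 9.48 times (8.50 to 10.6) the level in all other gated cells. Larger-vessel endothelial-like cells came next at 94.9 CPM, then fibroblast-like cells at 71.6 CPM and C1q macrophage-like cells at 61.7 CPM. The first of these steps exceeded counting error (log2 ratio 0.87, 0.37 to 1.41), whereas larger-vessel and fibroblast-like cells (0.41, -0.34 to 1.16), and fibroblast-like and C1q macrophage-like cells (0.21, -0.37 to 0.75), did not differ beyond it. Within the epithelium the level was 4.18 times (2.88 to 6.30) as high in ATII-like as in ATI or transitional epithelial-like cells (41.4 CPM, or 62.5 CPM with classes from clusters). Within the endothelium, larger-vessel cells had 4.95 times (3.13 to 7.73) the level of capillary cells. C1q macrophage-like cells had 8.06 times (5.93 to 11.1) the level of Mmp12-high myeloid cells. In basophil-like, cDC1-like, migratory dendritic-like, aerocyte, ILC2-like and plasma-like cells 0 UMIs were found, which in cDC1-like cells allows up to 4.55 CPM and in ILC2-like cells up to 26.7 CPM. When the 2 added gates were dropped, the C1q macrophage-like level was 32.5 CPM.

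Per cell, 36.9% of ATII-like cells (median 4134 UMIs) had a *Ptgs1* UMI, against 0.0969% of T-like cells (median 1662 UMIs), taken as cells that should lack it. At an equal depth of 1000 UMIs the shares were 11.0% (8.78 to 13.6) of 700 ATII-like cells, 10.4% of 125 larger-vessel cells and 0.0517% of 3871 T-like cells. ATII-like cells held 39.2% of the *Ptgs1* UMIs of gated cells, alveolar macrophage-like cells 23.0% and C1q macrophage-like cells 18.6%. The large macrophage share at 30.5 CPM came with 10536557 UMIs in that class, against 3162162 in ATII-like cells.

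*Ptgs2* (ENSMUSG00000032487, chr1:150100031-150108227, + strand) encodes the inducible cyclooxygenase-2. It led in other classes than *Ptgs1*. Basophil-like cells had 1112 CPM (994 to 1240, 324 UMIs) and neutrophil-like cells 838 CPM (803 to 873, 2202 UMIs), a ratio of 1.33 (1.18 to 1.49). Taken as the mean over cells of each cell's own CPM, that ratio was 0.14 on the log2 scale against 0.41 from summed UMIs. Neutrophil-like cells stood 5.27-fold (4.57 to 6.10) above classical monocyte-like cells. Below them, fibroblast-like (226 CPM), Mmp12-high myeloid (207 CPM), larger-vessel endothelial-like (190 CPM), classical monocyte-like (159 CPM) and non-classical monocyte-like cells (133 CPM) formed a series in which no neighbours differed beyond counting error. The non-classical value was 21.6 CPM when classes were taken from clusters, and in the gated class the 8 neutrophil markers summed to 5947 CPM, against 136053 CPM in neutrophil-like cells. Their part in the *Ptgs2* level was not tested.

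*Ptgs2* also differed among other myeloid classes. Mmp12-high myeloid cells had 1.75 times (1.58 to 1.94) the level of C1q macrophage-like cells, which in turn had 12.8 times (10.3 to 16.0) that of alveolar macrophage-like cells (9.30 CPM). Among dendritic cells, cDC2-like cells had 120 CPM and migratory dendritic-like cells 115 CPM, whereas cDC1-like cells had 15.2 CPM. Larger-vessel cells had 25.9 times (15.7 to 44.6) the level of capillary cells (7.32 CPM), with the UMIs in 10.0% of 130 cells and up to 13 in a cell. ATII-like cells had 24.4 CPM, and ATI or transitional epithelial-like cells 48.5 CPM. NK-like cells had 0 UMIs, which allows up to 4.47 CPM.

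*Ptgs2* was patchy within its leading classes. Of the basophil-like cells 46.8% had a UMI and of the neutrophil-like cells 42.4%, with up to 21 UMIs in a cell in both, against 0.436% of T-like cells. The 10% of neutrophil-like cells with most UMIs held 55.5% of the class's *Ptgs2* UMIs. At 1000 UMIs per cell the shares were 43.8% (35.9 to 51.8) of 160 basophil-like cells and 38.9% of 837 neutrophil-like cells, the class having 1870 cells with a median of 927 UMIs. Because they were more numerous, neutrophil-like cells held 40.7% of the *Ptgs2* UMIs of gated cells, Mmp12-high myeloid cells 25.03% and basophil-like cells 5.99%.

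**Figure D2:**
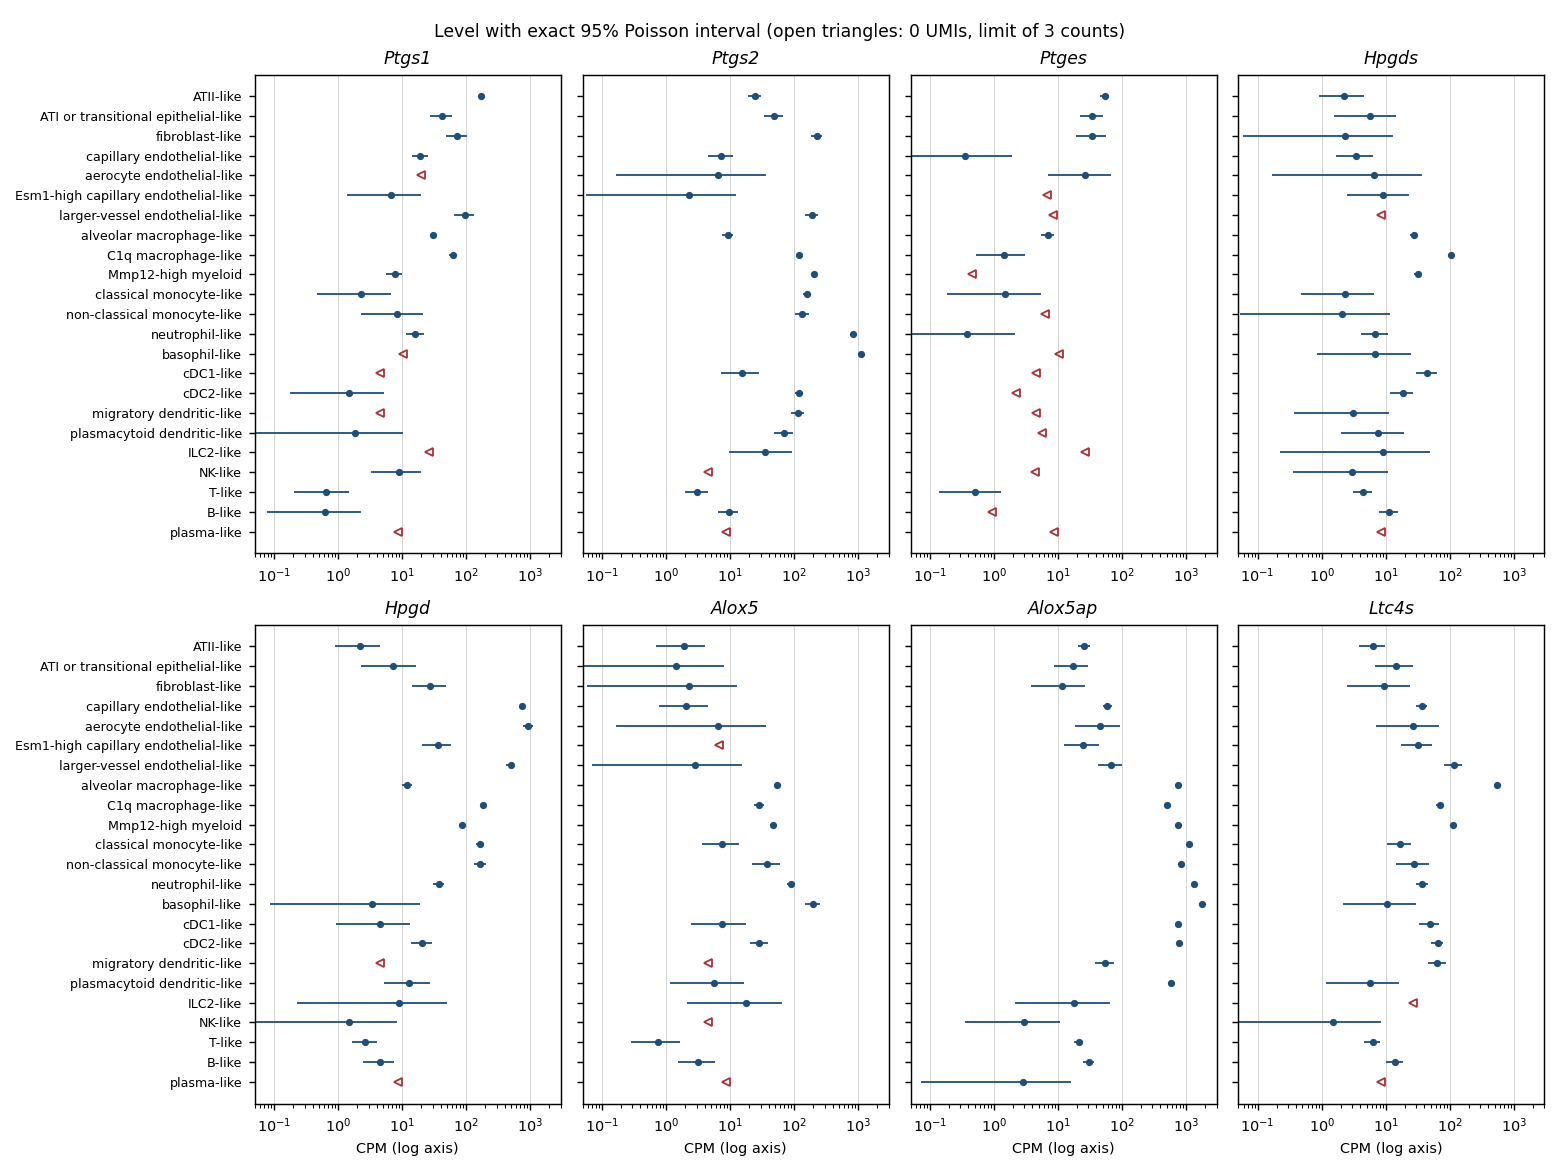
Level of each gene (panels) in each class on a log CPM axis, with exact 95% Poisson intervals as bars and open triangles at the limit that 3 counts allow where a class had 0 UMIs. *Ptges* has 0 UMIs in many immune classes, while *Alox5ap* spans from 1757 CPM in basophil-like to 2.85 CPM in plasma-like cells.

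*Ptges* (ENSMUSG00000050737, chr2:30889471-30929863, - strand) encodes the inducible microsomal prostaglandin E synthase. It had the fewest UMIs of the set, 392 in the matrix. ATII-like cells had 53.8 CPM (46.0 to 62.5, 170 UMIs), fibroblast-like cells 34.6 CPM (15 UMIs) and ATI or transitional epithelial-like cells 34.2 CPM (24 UMIs). The ATII-like level was 1.55 times the fibroblast-like level with an interval that includes no difference (0.92 to 2.84). It was 7.76 times (5.87 to 10.4) that of alveolar macrophage-like cells. Aerocyte endothelial-like cells had 4 UMIs in 70 cells (26.2 CPM). Neutrophil-like cells, second in *Ptgs2*, had 1 *Ptges* UMI in 1870 cells (0.380 CPM), and basophil-like and Mmp12-high myeloid cells had 0, which allows up to 10.3 and 0.460 CPM. At 1000 UMIs per cell, 4.43% (3.03 to 6.23) of 700 ATII-like cells had a *Ptges* UMI, against 0.0517% of T-like cells, and unthinned 18.1% and 0.0969%.

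Both *Ptgs1* and *Ptges* were seen in 10.3% of ATII-like cells without thinning and in 3 of 700 (0.429%) at equal depth. Gated cells held 76.5% of the *Ptges* UMIs in the matrix. Of the UMIs in gated cells, ATII-like cells held 56.7% and alveolar macrophage-like cells 24.3%. In the latter the 10 ATII markers summed to 206 CPM, against 146801 CPM in ATII-like cells.

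*Hpgds* (ENSMUSG00000029919, chr6:65117293-65144908, - strand) encodes the hematopoietic prostaglandin D synthase, known from mast cells, macrophages and type 2 lymphocytes. C1q macrophage-like cells led with 105 CPM (95.3 to 115, 440 UMIs). That was 3.31 times (2.80 to 3.92) the level of Mmp12-high myeloid cells (31.7 CPM) and 3.85 times (3.31 to 4.48) that of alveolar macrophage-like cells (27.2 CPM). cDC1-like cells had 44.0 CPM from 29 UMIs, but 13.8 CPM when classes were taken from clusters. The cluster given that name was mixed, as 26.0% of its 358 cells had passed the cDC1 gate. ILC2-like cells had 1 UMI in 58 cells and basophil-like cells 2 UMIs in 171 cells. B-like cells had 35 UMIs (11.1 CPM). At 1000 UMIs per cell, 9.42% (7.75 to 11.3) of 1083 C1q macrophage-like cells and 0.465% of T-like cells had a UMI, and 29.1% and 0.848% before thinning. Without the 2 added gates the C1q macrophage-like level was 66.0 CPM. *Ptgs1* and *Hpgds* were both seen in 6.62% of C1q macrophage-like cells without thinning and in 6 of 1083 (0.554%) at equal depth. C1q macrophage-like cells held 39.3% of the *Hpgds* UMIs of gated cells and alveolar macrophage-like cells 25.6%.

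*Hpgd* (ENSMUSG00000031613, chr8:56294585-56321043, + strand) encodes the dehydrogenase that starts prostaglandin breakdown. Here the vessel lining stood apart. Aerocyte endothelial-like cells, the gas-exchange capillary cells, had 923 CPM (777 to 1088, 141 UMIs), capillary cells 743 CPM (2132 UMIs) and larger-vessel cells 494 CPM (177 UMIs). Each step between these 3 exceeded counting error, at 1.24 (1.04 to 1.47) and 1.503 (1.29 to 1.76) times. The Esm1-high capillary class had 36.2 CPM from 16 UMIs in 174 cells. It was gated on at least 4 of *Plvap*, *Igfbp7*, *Kdr*, *Esm1*, *Rbp7* and *Igfbp3*. The other capillary cells had 20.5 times (12.6 to 36.0) the Esm1-high *Hpgd* level, a log2 ratio of 4.36 (3.66 to 5.17), or 5.73 with classes from clusters. The 10 capillary markers summed to 6101 CPM in the Esm1-high class and 7662 CPM in the other capillary cells. Both classes had passed the capillary gate on these markers, so high sums in both were built in. The Esm1-high gate was chosen after clusters were seen, though *Hpgd* was used neither in clustering nor in the gate.

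Outside the vessels *Hpgd* was seen in C1q macrophage-like (187 CPM), non-classical monocyte-like (166 CPM) and classical monocyte-like cells (165 CPM), which did not differ beyond counting error from their neighbours in that order. C1q macrophage-like cells had 15.7 times (13.01 to 19.2) the level of alveolar macrophage-like cells (11.9 CPM), and classical monocyte-like cells 4.43 times (3.47 to 5.68) that of neutrophil-like cells. ATII-like cells had 7 UMIs (2.21 CPM), and migratory dendritic-like cells 0, which allows up to 4.58 CPM. At 1000 UMIs per cell the share with a UMI was 43.8% (31.4 to 56.7) of 64 aerocyte and 36.3% of 1284 capillary cells, against 0.155% of T-like cells. Before thinning these were 58.6%, 47.1% and 0.412%. Capillary cells held 48.1% of the *Hpgd* UMIs of gated cells and C1q macrophage-like cells 17.7%.

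**Figure D3:**
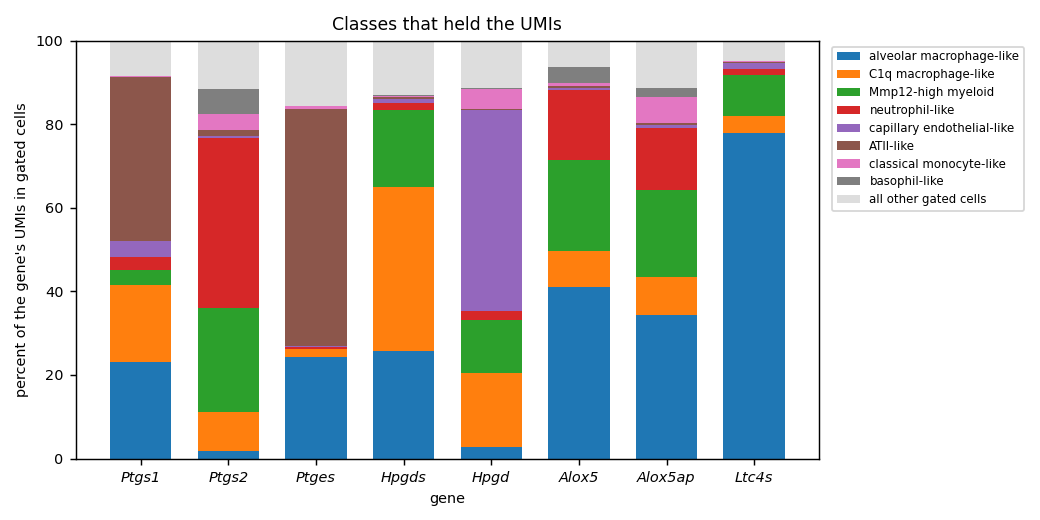
Percent of each gene's UMIs in gated cells (bars, 0 to 100) held by 8 classes and by all other gated cells. Alveolar macrophage-like cells hold 78.0% of *Ltc4s*, ATII-like cells 56.7% of *Ptges*, capillary cells 48.1% of *Hpgd* and neutrophil-like cells 40.7% of *Ptgs2*.

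*Alox5* (ENSMUSG00000025701, chr6:116410077-116461178, - strand) encodes 5-lipoxygenase. Basophil-like cells had 196 CPM (148 to 253, 57 UMIs), 2.17 times (1.60 to 2.91) the 90.2 CPM of neutrophil-like cells. Neutrophil-like cells had 1.64 times (1.41 to 1.92) the level of alveolar macrophage-like cells (54.9 CPM), and these had 1.90 times (1.56 to 2.33) that of C1q macrophage-like cells (28.8 CPM). Mmp12-high myeloid cells lay between at 46.9 CPM. The monocytes divided, with non-classical cells at 37.9 CPM (18 UMIs) and classical cells at 7.57 CPM (10 UMIs), a ratio of 5.0 (2.19 to 12.1). NK-like and migratory dendritic-like cells had 0 UMIs. At 1000 UMIs per cell 15.6% (10.4 to 22.2) of basophil-like, 9.80% of neutrophil-like and 0.0775% of T-like cells had a UMI, and before thinning 25.1%, 11.2% and 0.145%. The order by UMIs held was another one: alveolar macrophage-like cells held 41.1% of the *Alox5* UMIs of gated cells, Mmp12-high myeloid cells 21.7%, neutrophil-like cells 16.8% and basophil-like cells 4.05%.

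*Alox5ap* (ENSMUSG00000060063, chr5:149264767-149288153, + strand) encodes FLAP, which presents arachidonic acid to 5-lipoxygenase. An antisense gene, *Gm19719*, and an rRNA gene overlap it. It was seen across the myeloid classes. Basophil-like cells had 1757 CPM (1608 to 1916), neutrophil-like cells 1322 CPM and classical monocyte-like cells 1127 CPM, each step exceeding counting error. Non-classical monocyte-like (827 CPM), cDC2-like (772 CPM), alveolar macrophage-like (762 CPM) and cDC1-like cells (761 CPM) followed without a gap between neighbours. Mmp12-high myeloid cells had 746 CPM, plasmacytoid dendritic-like cells 592 CPM and C1q macrophage-like cells 511 CPM. Migratory dendritic-like cells fell out of this series at 55.0 CPM, cDC2-like cells having 14.0 times (10.1 to 20.2) their level. With classes from clusters the migratory value was 134 CPM. T-like cells had 21.3 CPM and NK-like cells 2.98 CPM. Among basophil-like cells 91.2% had an *Alox5ap* UMI, and 1.91% of T-like cells, and 81.9% (75.0 to 87.5) and 0.982% at 1000 UMIs per cell.

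*Ltc4s* (ENSMUSG00000020377, chr11:50236461-50238616, - strand) encodes leukotriene C4 synthase, and an antisense gene, *Gm26542*, overlaps it. It was concentrated in alveolar macrophage-like cells, at 539 CPM (525 to 553, 5675 UMIs). This was 13.1 times the level in all other gated cells, 7.79 times (6.92 to 8.80) that of C1q macrophage-like cells (69.1 CPM) and 14.6 times (11.9 to 18.0) that of neutrophil-like cells (36.9 CPM). Basophil-like cells, first in *Alox5* and *Alox5ap*, had 3 *Ltc4s* UMIs in 171 cells (10.3 CPM), a ratio of 52.3 (17.9 to 254) in favour of the alveolar macrophages. Larger-vessel endothelial-like cells (114 CPM, 41 UMIs) and Mmp12-high myeloid cells (110 CPM, 721 UMIs) did not differ beyond counting error (ratio 1.04, 0.74 to 1.42). The larger-vessel level was 3.13 times (2.13 to 4.53) the capillary level. In larger-vessel cells the 10 alveolar macrophage markers summed to 234 CPM, and in capillary cells to 498 CPM, against 30358 CPM in alveolar macrophage-like cells. In neutrophil-like cells they summed to 1712 CPM, and their part in the neutrophil-like *Ltc4s* level, 23.4 CPM with classes from clusters, was not tested. The list includes *Chil3*, which was also a classical monocyte marker here, so its sum is not specific to alveolar macrophages. There were 70.6 *Ltc4s* UMIs per 100 *Alox5ap* UMIs in alveolar macrophage-like cells, 171 in larger-vessel cells (41 and 24 UMIs) and 2.79 in neutrophil-like cells. Esm1-high (127), migratory dendritic-like (117), ATI or transitional epithelial-like (83.3) and fibroblast-like cells (80) also exceeded the alveolar macrophage-like value. These rest on 5 to 36 *Alox5ap* UMIs each.

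At 1000 UMIs per cell 38.6% (36.4 to 40.8) of 1906 alveolar macrophage-like cells had an *Ltc4s* UMI, 9.95% of Mmp12-high myeloid cells and 0.284% of T-like cells, and before thinning 84.5%, 36.7% and 0.654%. A UMI of *Alox5*, *Alox5ap* and *Ltc4s* together was seen in 20.4% of alveolar macrophage-like cells (median 5456 UMIs), in 8.46% of Mmp12-high myeloid cells and in 2.63% of C1q macrophage-like cells without thinning. At equal depth it was seen in 28 of 1906 alveolar macrophage-like cells (1.47%, 0.98 to 2.12). The Cre reporter transcript, TdTomato, had 2673 CPM in alveolar macrophage-like cells, 155 CPM in T-like cells and 183 CPM in C1q macrophage-like cells. A TdTomato UMI was seen in 94.3%, 20.9% and 27.6% of these cells, and in 83.9% (82.2 to 85.6), 13.4% and 10.8% at 1000 UMIs per cell, so that a single UMI does not mark a recombined cell.

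Alveolar macrophage-like cells were also split by a TdTomato UMI, 1844 cells with and 112 without. For 3 of the 8 genes the level was higher with the UMI beyond counting error: *Alox5* (56.0 and 32.7 CPM, log2 ratio 0.77, 0.08 to 1.56), *Ltc4s* (545 and 412 CPM, 0.40, 0.21 to 0.61) and *Alox5ap* (773 and 551 CPM, 0.49, 0.32 to 0.66). For the other 5 the interval included 0, with log2 ratios of -0.64 (-1.24 to 0.02) for *Ptgs1*, -0.58 for *Hpgd*, -0.53 for *Hpgds*, -0.05 for *Ptgs2* and 0.88 for *Ptges*. The 10 alveolar macrophage markers were at 29866 CPM with and 39858 CPM without the UMI. ATII-like cells were split by a *Hopx* UMI, 126 cells with and 621 without. *Ptgs1* was 172 CPM with and 173 CPM without (log2 ratio -0.01, -0.34 to 0.31). *Ltc4s* differed beyond counting error, from 9 and 11 UMIs (15.8 and 4.24 CPM, 1.90, 0.45 to 3.31), and the intervals of the other members included 0.

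**Figure D4:**
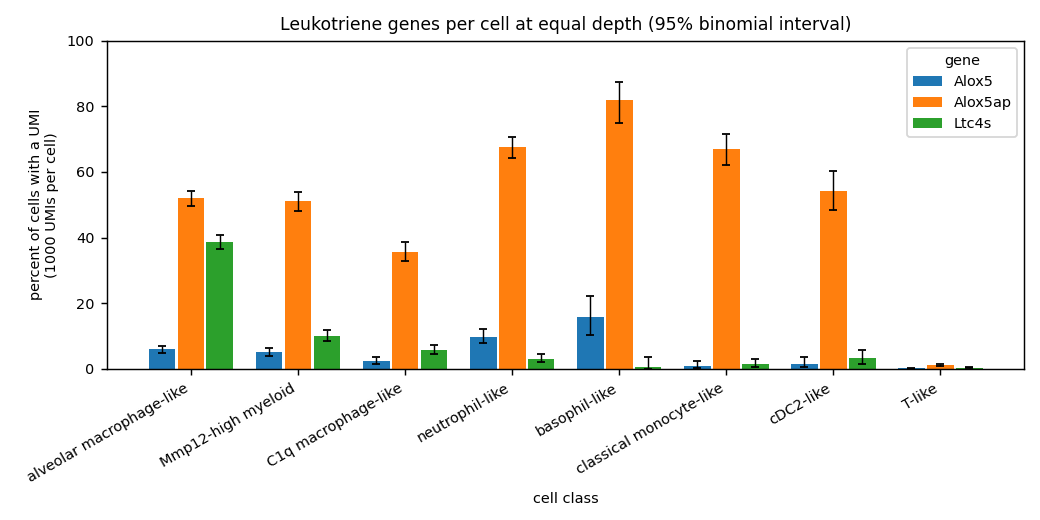
Percent of cells with a UMI of *Alox5*, *Alox5ap* or *Ltc4s* at 1000 UMIs per cell in 8 classes, with exact 95% binomial intervals as bars. *Ltc4s* reaches 38.6% in alveolar macrophage-like cells and 0.625% in basophil-like cells, where *Alox5ap* reaches 81.9%.

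Neighbouring steps of the pathway were described from lists of 61 genes, 59 of them measured, of which 18 reached 100 CPM in a class. Of 11 genes of arachidonate release, 3 did: *Pla2g7*, which hydrolyses platelet-activating factor, in neutrophil-like cells (460 CPM), *Pla2g15*, a lysosomal phospholipase, in alveolar macrophage-like cells (189 CPM) and *Pla2g1b* in ATII-like cells (138 CPM). Of 11 measured terminal synthases and related reductases 4 did: *Ptgis*, the prostacyclin synthase, in fibroblast-like cells (316 CPM), *Cbr2* in ATII-like cells (387 CPM), *Akr1b3* in alveolar macrophage-like cells (185 CPM) and *Ptges3*. *Ptges3* was spread over the classes, with 167 CPM (137 to 201) in cDC1-like and 153 CPM in alveolar macrophage-like cells, the first being 1.37 times the level of all other gated cells.

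Of 10 other lipoxygenase and leukotriene genes 4 did. *Alox15*, the 12/15-lipoxygenase, had 202 CPM (154 to 261) in basophil-like cells and 4.29 CPM in the next class. *Mgst1* had 529 CPM in alveolar macrophage-like and 419 CPM in ATII-like cells. *Gpx4* was seen in every class, from 139.7 CPM in plasma-like cells to 848 CPM in ATII-like and 1093 CPM in ATI or transitional epithelial-like cells. *Mgst3* had 255 CPM in aerocyte and 147 CPM in ATI or transitional epithelial-like cells. Of 9 inactivation and processing genes 3 did: *Cyp4f18*, which inactivates leukotriene B4, in basophil-like (652 CPM) and neutrophil-like cells (587 CPM), *Dpep1*, a dipeptidase that trims cysteinyl leukotrienes, in fibroblast-like cells (115 CPM), and *Cyp4f16* in non-classical monocyte-like cells (109 CPM).

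*Slco2a1*, the transporter that takes prostaglandins into cells, reached 100 CPM, 1 of 3 transporters listed. It had 1159 CPM in aerocyte, 980 CPM in larger-vessel and 869 CPM in capillary cells, the classes that also led in *Hpgd*, and 292 CPM in the Esm1-high class. Of 9 prostanoid receptors *Ptger4*, a prostaglandin E2 receptor, did, in migratory dendritic-like (142 CPM, 115 to 174), plasmacytoid dendritic-like (113 CPM) and cDC2-like cells (108 CPM). Of 6 leukotriene and related receptors, *Ltb4r1* had 232 CPM in ILC2-like cells (26 UMIs) and 133 CPM in neutrophil-like cells, and *Fpr2* had 334 CPM in neutrophil-like cells.

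The genes most alike in level over the 23 classes were found by Pearson's r of log2(CPM + 10) among 6871 genes, as a description. All classes share the same pooled libraries. For *Alox5ap* they were *Pirb* (r = 0.95), *Taldo1* (0.95) and *Cd300a* (0.92), and for *Alox5* *Nlrp3* (0.91), *Lilr4b* (0.90) and *Plk3* (0.89). *Ptges* was nearest *Fat1* (0.92), *Ctdspl* (0.91) and *Bicc1* (0.90), and *Hpgd* nearest *Ehd4* (0.88), *Adam15* (0.87) and *Stard9* (0.85). *Ltc4s* was nearest *Ccdc86* (0.85), *Dab2* (0.85) and *Vps35* (0.84), and *Ptgs1* nearest *Itga9* (0.85), *Lbp* (0.80) and *Tanc2* (0.80). *Ptgs2* was nearest *Ifitm1* (0.82), *Hacd4* (0.78) and *Rabgef1* (0.78), and *Gpr34* (0.79) and *Xlr* (0.78) were among the nearest to *Hpgds*. Of 6 pairs of members compared in the same way, *Alox5* and *Alox5ap* had r = 0.78, *Ptgs2* and *Alox5ap* 0.62, *Ptgs1* and *Ptges* 0.58, *Alox5ap* and *Ltc4s* 0.50, *Alox5* and *Ltc4s* 0.35, and *Ptgs2* and *Hpgd* 0.14.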

How the data were processed

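Single cells from lung tumors of 4 mice (2 Restored, 2 Non-Restored) were profiled with 10x 3′ v3 chemistry. The authors deposited 1 matrix of raw UMI counts (31055 features, 20351 cells) from Cell Ranger 3.0.2 and mm10. It pools the mice, so no cohort comparison was made. Cells with at least 200 genes and below the 98th percentile of genes and of mitochondrial share were kept (19488 cells, 500 to 27215 UMIs each). Each cell was scored for the rarity-weighted share of each marker list it showed and gated at a score of at least 0.2 (0.15 for T-like) with at least 3 markers and a lead of 0.03 over the next list. No lead was asked between the capillary and aerocyte lists or between the ATII and ATI lists. The ATII, ATI and aerocyte gates also needed 2 markers outside a short list of shared genes. Capillary cells with at least 2 *Vwf* UMIs and 2 larger-vessel genes formed the larger-vessel class. The Mmp12-high gate took its cells from C1q macrophage, cDC2, ATII and ungated cells. Doublets were not removed beyond this lead; Scrublet was an alternative.

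Counts were summed per class and expressed as CPM with exact Poisson intervals. Ratios carry exact conditional intervals, and shares of cells exact Clopper-Pearson intervals, after thinning to 1000 UMIs with shallower cells left out. A count of 0 is given the limit of 3 counts. UMI intervals cover counting error only, and the pooled cells are not replicates, so no p-value was computed. The 8 genes were reported in every class, pathway genes from 100 CPM upward, and 3 genes most alike for each member (at least 50 CPM in a class, markers and members left out). The members, the marker and pathway lists and the tests were chosen with earlier results of these data known, and the scoring and 2 gates (Esm1-high, Mmp12-high) after clusters were seen. An allele that all mice shared and a gene alike in level to a member are not reported here. Coordinates are from GENCODE vM21 (GRCm38). The code was tested on simulated data. Python 3.11.15 with numpy 2.4.6, scipy 1.17.1 and scanpy 1.11.5 was used.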

Additional observations from a re-analysis of the deposited data

How the results depend on the processing

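Under 8 alternatives that re-gate or re-filter the cells, each of the 8 genes kept its highest class in all 64 recomputations. Of 107 levels and ratios recomputed under 9 alternatives, 102 stayed inside the 95% interval of the value given and none changed direction. Some of these values could not move. Dropping the 2 added gates left the basophil-like, aerocyte and alveolar macrophage-like classes as they were, and Scrublet called 0 basophil-like cells. The 5 outside were as follows, and the cause was not tested. *Ptgs1* in ATII-like cells was 142 CPM as the mean over cells of each cell's CPM. *Hpgds* in C1q macrophage-like cells was 66.0 CPM without the 2 added gates, an alternative chosen after seeing the data. With clusters in place of gates the log2 ratio of *Hpgd* between capillary and Esm1-high cells was 5.73. The log2 ratio of *Ptgs2* between basophil-like and neutrophil-like cells was 0.14 by the mean over cells. That of *Alox5ap* was 0.64 with at least 500 genes per cell. With clusters, 37 of 160 levels left their interval. No cluster was named cDC2-like, larger-vessel endothelial-like or ILC2-like, so those classes were not checked in this way. Under the other alternatives that re-gate or re-filter, 5 to 12 of 168 to 184 levels left it. Scrublet called 173 cells (0.888%).

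The share of cells with a UMI depends on depth by construction. In each gene's leading class, thinned to 500 UMIs, it was 6.96% for *Ptgs1*, 33.9% for *Ptgs2*, 2.41% for *Ptges*, 5.8% for *Hpgds*, 35.7% for *Hpgd*, 9.94% for *Alox5*, 63.2% for *Alox5ap*, 21.7% for *Ltc4s*. Thinned to 2000 UMIs it was 26.2% for *Ptgs1*, 42.9% for *Ptgs2*, 8.47% for *Ptges*, 18.9% for *Hpgds*, 58.1% for *Hpgd*, 42.9% for *Alox5*, 96.4% for *Alox5ap*, 60.8% for *Ltc4s*. Shallower cells were left out there, which kept 28 of 171 basophil-like and 31 of 70 aerocyte cells. Those shares therefore describe the deeper cells of the class, and for *Alox5* and *Alox5ap* they exceed the unthinned ones. Without thinning the share was 36.9% for *Ptgs1*, 46.8% for *Ptgs2*, 18.1% for *Ptges*, 29.1% for *Hpgds*, 58.6% for *Hpgd*, 25.1% for *Alox5*, 91.2% for *Alox5ap*, 84.5% for *Ltc4s*. Levels below about 10 CPM in small classes rest on a few UMIs. No paired analysis was possible because cells were not assigned to mice.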
